A study of Mus musculus with 12 samples.

Results

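A set of 40 growth genes, known to respond to the transcription factor Myc, was followed in intestinal stem cells of mice with neither, 1 or both Apc alleles floxed. The set was chosen by name, with earlier results of these data known. It holds nucleolar factors of ribosome assembly, RNA polymerase I genes, and enzymes of polyamine and purine synthesis. Of the 40 genes, 35 had a usable row of their own among the 14082 gene symbols used. Ddx21 and Mybbp1a appeared only in rows joined with a neighbouring gene, and Nop16, Bop1 and Wdr74 had no row under their symbols, so these 5 were not analysed here. The cells were Lgr5-GFP+ cells of the intestinal epithelium, sorted by FACS from C57BL/6 mice. All mice carried Lgr5-CreERT2-ires-eGFP, in which the Lgr5 locus drives both the tamoxifen-inducible Cre and the GFP used for the sort. The genotypes were Apc+/+ (wild type), ApcFlox/+ (heterozygous) and ApcFlox/Flox (knockout), with 4 mice and 4 libraries each. All 3 genotypes, the wild type included, received 1 tamoxifen injection and 5 days of tamoxifen diet, and cells were taken at day 15. The labels give no sex, age, batch or date.

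Ribosomes are assembled in the nucleolus, where RNA polymerase I transcribes a long precursor RNA that is modified, cut and packed with ribosomal proteins. Box C/D and box H/ACA ribonucleoproteins place methyl groups and pseudouridines on that precursor, and separate sets of factors mature the small and the large subunit. Polyamines, made from ornithine, bind RNA and support translation, and de novo purine synthesis supplies nucleotides for it. Myc binds the E-box CACGTG near many of these genes, and Myc is itself a known target of Wnt signalling, the pathway that Apc restrains and on which crypt stem cells depend.

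Values are FPKM, fragments per kilobase of transcript and per unit of sequencing depth, and libraries are given in the order of replicates 1 to 4. Differences are on the log2(FPKM + 1) scale. A gene is called where limma's moderated test gave a Benjamini-Hochberg adjusted p under 0.05 over all 12962 genes tested. All 35 genes passed the filter of at least 1 FPKM in at least 4 libraries. Gene positions are from GENCODE M21 on GRCm38.

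Several features of the libraries bear on these genes. Absolute depth is unknown, and depth relative to wild-type replicate 1, read from the steps between low values, ran from 0.369 to 0.883 in the other libraries. For the knockout libraries it was read from 6 to 9 genes at the commonest ratio, of 12 to 24 compared, and is uncertain. In the other wild-type and the heterozygous libraries 155 to 199 genes were compared. Knockout replicates 1 and 4 stood apart: limma's array weights were 0.207 and 0.135 for them against 0.921 to 3.41 in the other 10 libraries. Apc itself was at 9.97, 6.91, 10.5 and 8.20 FPKM in the wild-type, 9.81, 11.0, 10.7 and 12.5 in the heterozygous and 17.3, 12.9, 15.3 and 9.94 in the knockout libraries, a whole-gene value that does not show whether the floxed exon was lost. Axin2, a Wnt feedback gene, was at 49.6 ± 6.29 (SD, n = 4) FPKM in wild type, 65.9 ± 7.54 in heterozygous and 128 ± 21.4 in knockout cells, and rose in knockout cells by 1.34 ± 0.14 (SE, adjusted p = 1.04e-05). Markers of other cell types also differed between wild-type and knockout cells, where 27.9% of all genes were called higher and 17.7% lower in knockout cells. All 14 of 14 enterocyte markers, 7 of 8 goblet markers and 6 of 7 enteroendocrine markers fell. The summed enterocyte level was 2284 to 5435 FPKM in wild-type and 372 to 611 FPKM in knockout libraries. The summed level of 6 stroma and endothelium markers was 8.91 to 26.5 FPKM in wild-type, 20.8 to 88.5 FPKM in heterozygous and 159.9 to 179.6 FPKM in knockout libraries, with 4 of 5 tested called higher and 1 lower. Cdh5, an endothelial cadherin, was at 0, 0.0158, 0 and 0 FPKM in wild-type and 27.6, 19.7, 14.2 and 29.3 FPKM in knockout libraries. Paneth markers gave 1 call higher and 2 lower of 5, tuft markers 1 higher and 3 lower of 4, and leukocyte markers 1 lower of 3, with a leukocyte sum of 6.05 to 7.70 FPKM in wild-type and 1.21 to 4.67 FPKM in knockout libraries. Of 10 intestinal stem cell markers 5 rose and 2 fell, and Olfm4, a marker of crypt base cells, was at 5667, 5782, 5378 and 5019 FPKM in wild-type and 106, 674, 702 and 81.7 FPKM in knockout libraries. In bulk samples, fewer cells of a type and less RNA per cell cannot be told apart, and the part of these shifts in the values of the growth genes was not tested.

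In knockout against wild-type cells, 11 of the 35 growth genes were called higher, none lower, and 24 were not called. The share called higher, 31.4%, lay near the background of all genes, of which 27.9% were called higher and 17.7% lower (45.5% in either direction). The 11 genes were Ppat, Gar1, Nop56, Rrp1b, Rrs1, Gnl3, Rrn3, Ddx18, Polr1a, Tsr1 and Wdr43, with differences from 0.35 to 0.83. The median difference of the 35 was 0.32, against 0.12 for all genes tested, and 32 of the 35 were above 0. In 12 genes every knockout library was above every wild-type library, and in 0 every one was below. Over all genes, 24.3% did not overlap in the higher direction and 16.0% in the lower, on FPKM before any further scaling. Scaling libraries by median-ratio size factors lowered the median of all genes to 0.01 and that of the growth genes to 0.20, and left 11 calls against a background of 22.1%. Fbl, Wdr12, Rrp12, Utp20 and Polr1b then also fell below 0. The share of all genes above 0 was not counted.

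**Figure D1:**
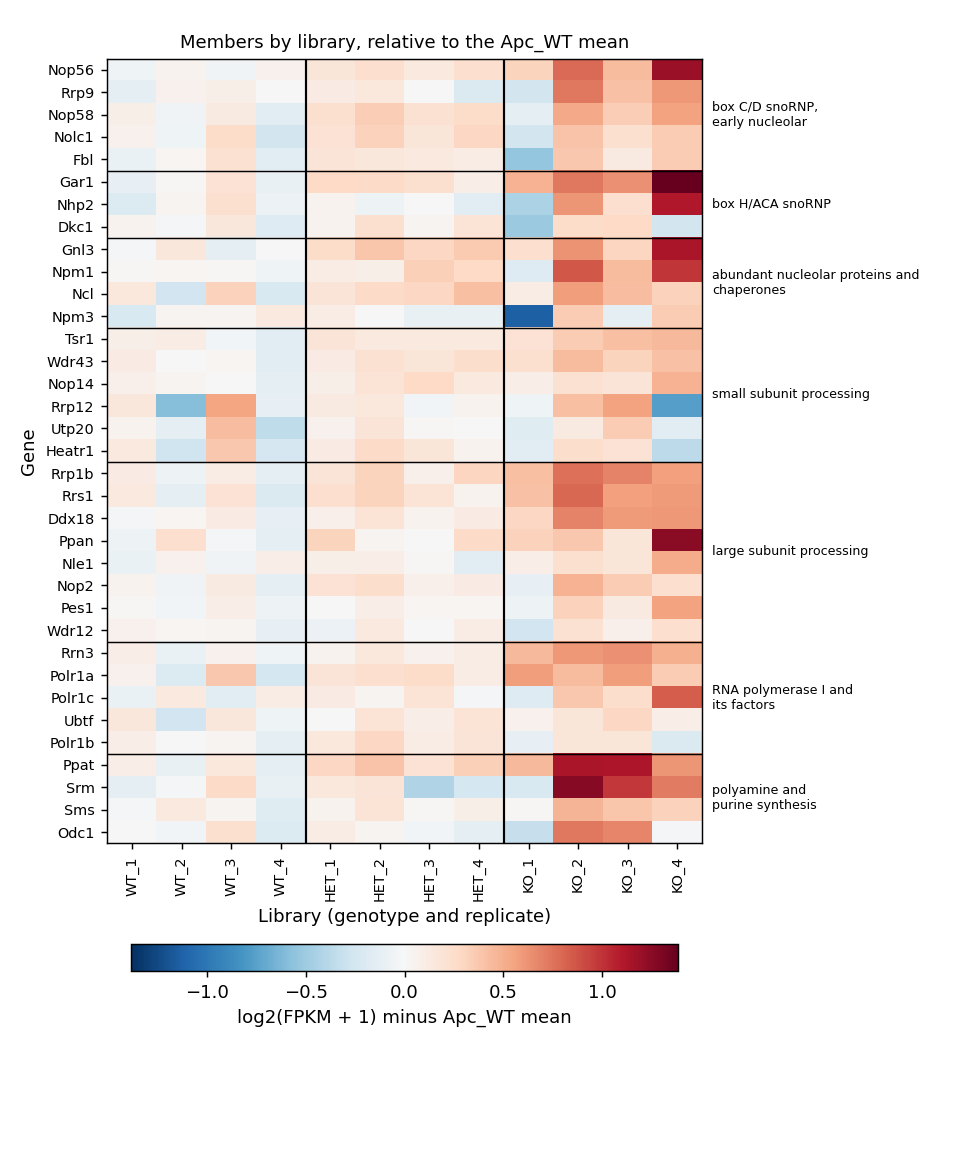
Colour shows log2(FPKM + 1) of each of 35 growth genes (rows, grouped by role) in each of 12 libraries (columns), minus the mean of the 4 wild-type libraries. Knockout replicate 1 is paler or bluer than the other knockout libraries in most rows and was the lowest knockout library in 30 of 35 genes.

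The promoters of these genes were searched for the E-box CACGTG, a palindrome that reads the same on both strands and overlaps no other motif searched. RefSeq promoters on GRCm38.p6, taken from 250 bases before to 50 bases after a transcription start, were found for 30 of the 35 genes. The motif was present in 8 of the 30 (26.7%), against 1063 of 9130 genes tested that had a promoter (11.6%). It was present in 3 of 10 called genes (30%) and in 5 of 20 genes not called (25%). The windows are shown because they are the letters that Myc and its partner Max are known to bind; the motif is in capitals, a match is a description and binding was not measured.
Rrn3, 215 bases before the start, motif at chr16:13780484-13780489, + strand: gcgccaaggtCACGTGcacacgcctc
Rrn3, 48 bases before the start, motif at chr16:13780651-13780656, + strand: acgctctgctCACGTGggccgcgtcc
Sms, 196 bases before the start, motif at chrX:157492478-157492483, - strand: cagcggggttCACGTGcatttaaaga
Nop2, 60 bases before the start, motif at chr6:125131823-125131828, + strand: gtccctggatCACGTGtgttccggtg
Wdr43, 18 bases after the start, motif at chr17:71616232-71616237, + strand: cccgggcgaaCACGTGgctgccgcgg
Tsr1, 25 bases after the start, motif at chr11:74898104-74898109, + strand: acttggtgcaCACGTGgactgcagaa
Pes1, 3 bases after the start, motif at chr11:3963977-3963982, + strand: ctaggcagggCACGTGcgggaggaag
Nle1, 24 bases after the start, motif at chr11:82908367-82908372, - strand: ggttctcctcCACGTGgggacgcagg
Utp20, 38 bases after the start, motif at chr10:88826772-88826777, - strand: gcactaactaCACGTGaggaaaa
Rrn3 was the only one of the 8 with 2 matches, both before its start, and its 250 upstream bases (chr16:13780449-13780698, + strand, GRCm38.p6) are given whole.
Rrn3 upstream: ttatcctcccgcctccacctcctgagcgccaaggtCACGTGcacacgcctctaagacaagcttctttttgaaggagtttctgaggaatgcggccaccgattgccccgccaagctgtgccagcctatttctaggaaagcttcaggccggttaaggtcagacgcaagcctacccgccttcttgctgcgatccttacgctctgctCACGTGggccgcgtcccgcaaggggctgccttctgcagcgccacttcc
Rrn3, Wdr43 and Tsr1 were called higher in knockout cells, while Sms, Nop2, Pes1, Nle1 and Utp20 were not.

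Among RNA polymerase I genes, 2 of 5 rose in knockout cells, with a median difference of 0.32. The counts of this and the following roles are to be read beside the 27.9% of all genes called higher. Rrn3 (chr16:13780708-13814839), the factor that links polymerase I to the promoter-bound factors, was at 17.9, 15.7, 17.5 and 16.0 FPKM in the wild-type, 17.4, 18.6, 17.5 and 18.1 in the heterozygous and 23.3, 25.9, 26.5 and 23.9 in the knockout libraries. All 4 knockout libraries were above all 8 others, the heterozygous libraries overlapped the wild type, and the rise was 0.54 ± 0.08 (SE, adjusted p = 0.000175), the smallest adjusted p of the set. Polr1a (chr6:71909053-71984935), the largest polymerase I subunit, was at 12.4, 10.3, 15.6 and 9.87 FPKM in the wild-type, 13.6, 14.1, 14.3 and 12.8 in the heterozygous and 18.2, 16.4, 18.2 and 15.4 in the knockout libraries. It rose by 0.49 ± 0.13 (SE, adjusted p = 0.00866), although wild-type replicate 3 was above knockout replicate 4, so the groups overlapped. It was also the 1 gene in which knockout replicate 1 was not below the mean of the other 3 knockout libraries, sharing the highest value with replicate 3. Polr1b (chr2:129100995-129126594), the other large subunit of the catalytic core, was at 16.3, 15.2, 15.6 and 13.7 FPKM in the wild-type, 16.9, 18.7, 16.4 and 17.3 in the heterozygous and 13.9, 17.1, 17.2 and 13.1 in the knockout libraries. Its groups overlapped, with a difference of 0.00 ± 0.11 (SE, adjusted p = 0.982), and it was below 0 under other scalings (-0.11 with size factors and -0.09 with quantile normalization). Ubtf (chr11:102304560-102319742), which coats ribosomal DNA and keeps it open, was at 83.5, 61.8, 83.6 and 71.8 FPKM in the wild-type, 74.7, 85.0, 79.6 and 85.4 in the heterozygous and 78.0, 84.2, 91.1 and 79.7 in the knockout libraries. Its libraries overlapped throughout, with a difference of 0.15 ± 0.11 (SE, adjusted p = 0.296). Polr1c, a subunit shared with RNA polymerase III, had a difference of 0.32 ± 0.17 (SE, adjusted p = 0.157), with 37.0 FPKM in knockout replicate 4 and 17.7 to 26.4 FPKM in the other knockout libraries.

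In the box C/D group, which guides methylation and early cleavage of the precursor, 1 of 5 genes rose. Nop56 (chr2:130274430-130279313), a core protein of these particles, was at 28.5, 30.7, 28.6 and 31.0 FPKM in the wild-type, 33.4, 35.1, 32.6 and 35.0 in the heterozygous and 37.1, 52.0, 40.6 and 69.2 in the knockout libraries. In FPKM without size factors the 3 genotypes did not overlap and stood in the order wild type, heterozygous, knockout. The rise in knockout cells was 0.68 ± 0.16 (SE, adjusted p = 0.00364), and the heterozygous difference of 0.19 was not called. Nop58 (chr1:59684971-59719044), its partner in the core, was at 60.0, 54.6, 61.9 and 50.5 FPKM in the wild-type, 65.9, 72.0, 65.7 and 67.6 in the heterozygous and 51.3, 81.9, 72.0 and 83.5 in the knockout libraries. Knockout replicate 1 lay among the wild-type libraries and the other 3 above all of them, with a difference of 0.32 ± 0.14 (SE, adjusted p = 0.0881). Fbl (chr7:28169710-28179269), the methyltransferase fibrillarin, was at 58.1, 63.3, 72.3 and 56.1 FPKM in the wild-type, 70.6, 69.6, 68.6 and 66.9 in the heterozygous and 42.6, 81.1, 67.9 and 79.3 in the knockout libraries. Knockout replicate 1 was the lowest of all 12 libraries, and the difference of 0.08 ± 0.18 (SE, adjusted p = 0.743) did not keep its sign with size factors, at -0.04. Nolc1, a chaperone of these particles, and Rrp9, which binds the U3 RNA, had differences of 0.18 and 0.37 that were not called (adjusted p = 0.362 and 0.113).

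In the box H/ACA group, which converts uridines to pseudouridines, 1 of 3 genes rose. Gar1 (chr3:129824912-129831396), an accessory protein of the particle, was at 38.5, 42.4, 48.4 and 38.9 FPKM in the wild-type, 51.0, 50.5, 49.0 and 44.8 in the heterozygous and 58.9, 70.4, 65.3 and 111 in the knockout libraries. Every knockout library was above every other library, replicate 4 farthest, and the rise was 0.81 ± 0.17 (SE, adjusted p = 0.00189). Dkc1 (chrX:75095854-75109777), the pseudouridine synthase itself, was at 39.2, 37.3, 42.2 and 33.4 FPKM in the wild-type, 39.3, 44.3, 38.9 and 43.4 in the heterozygous and 26.3, 45.5, 46.2 and 31.5 in the knockout libraries. Knockout replicates 2 and 3 were the highest and replicates 1 and 4 the lowest of all libraries, and the difference was -0.06 ± 0.16 (SE, adjusted p = 0.808). Nhp2, another protein of the same particle, ranged from 52.3 FPKM in knockout replicate 1 to 155 FPKM in knockout replicate 4, against 62.5 to 83.8 FPKM in wild type, with a difference of 0.38 ± 0.25 (SE, adjusted p = 0.248). The 3 subunits of this particle thus gave 1 call and differences of either sign, and whether they differed from each other was not tested.

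**Figure D2:**
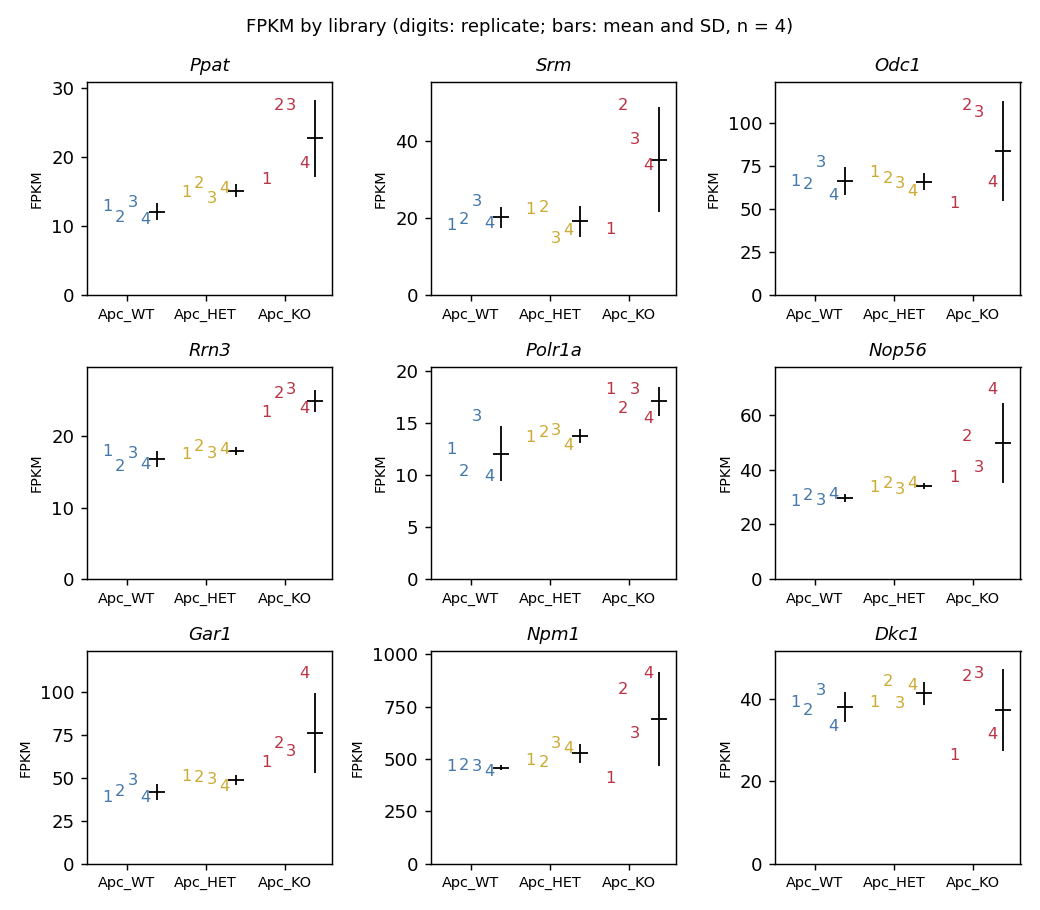
FPKM (vertical axes from 0) of 9 growth genes in the 3 genotypes; each digit is the replicate number of a library, and the black bar is the mean with its SD (n = 4). Rrn3 and Ppat separate the knockout libraries from the rest, while in Srm, Odc1, Npm1 and Dkc1 knockout replicate 1 lies below the wild-type range.

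Among the abundant nucleolar proteins, 1 of 4 genes rose. Gnl3 (chr14:31012433-31019152), the GTPase nucleostemin of stem and dividing cells, was at 45.5, 51.8, 42.4 and 46.3 FPKM in the wild-type, 55.6, 60.8, 56.6 and 60.0 in the heterozygous and 54.7, 72.2, 57.1 and 103 in the knockout libraries. All heterozygous and all knockout libraries were above all wild-type libraries, knockout replicates 1 and 3 stood within or just below the heterozygous range, and the rise in knockout cells was 0.57 ± 0.17 (SE, adjusted p = 0.0148). Npm1 (chr11:33152287-33163206), nucleophosmin, had the highest level of the set, at 462, 467, 462 and 439 FPKM in the wild-type, 493, 483, 576 and 552 in the heterozygous and 405, 832, 621 and 907 in the knockout libraries. The wild-type libraries were tight and the knockout libraries ran from below all of them to well above them, with a difference of 0.53 ± 0.23 (SE, adjusted p = 0.0851). Npm1 has processed pseudogenes in the mouse genome, and how reads shared with them were counted is not given in the sources used here. Ncl (chr1:86344719-86359400), nucleolin, was at 164, 123, 185 and 127 FPKM in the wild-type, 167, 178, 180.2 and 197 in the heterozygous and 159, 221, 199 and 184 in the knockout libraries. Wild-type replicates 1 and 3 lay within the knockout range, and the difference was 0.36 ± 0.15 (SE, adjusted p = 0.0783). Npm3 (chr19:45747734-45749591), a nucleophosmin relative, was at 33.2, 39.6, 39.4 and 42.4 FPKM in the wild-type, 41.4, 38.7, 35.8 and 35.9 in the heterozygous and 17.0, 49.5, 35.3 and 49.5 in the knockout libraries. Knockout replicate 1 was the lowest of all libraries, and the difference was -0.14 ± 0.27 (SE, adjusted p = 0.703).

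Of the small subunit processing genes, 2 of 6 rose, and the group's median difference of 0.14 was the lowest of the 7 roles. Tsr1 (chr11:74898071-74909342), a late assembly factor of the small subunit, was at 46.9, 47.6, 43.2 and 40 FPKM in the wild-type, 50.3, 48.8, 48.8 and 48.9 in the heterozygous and 51.1, 56.8, 59.5 and 60.9 in the knockout libraries. In FPKM without size factors the genotypes did not overlap and stood in the order wild type, heterozygous, knockout. The rise in knockout cells was 0.36 ± 0.09 (SE, adjusted p = 0.00589), and the heterozygous difference of 0.15 was not called. Wdr43 (chr17:71615895-71659031), a component of the small subunit processome, was at 38.8, 35.9, 36.4 and 32.3 FPKM in the wild-type, 38.7, 41.7, 40.4 and 42.7 in the heterozygous and 41.9, 49.0, 44.7 and 47.8 in the knockout libraries. Wild-type and knockout libraries did not overlap, and the rise was 0.35 ± 0.09 (SE, adjusted p = 0.0063). Nop14, of the same processome, did not overlap between wild-type and knockout libraries either, but its difference of 0.24 ± 0.10 (SE, adjusted p = 0.0707) was not called. Rrp12, Utp20 and Heatr1, large scaffold-like factors, had differences of 0.04, 0.04 and -0.01, and the wild-type libraries alone spread from 5.90 to 14.1 FPKM in Rrp12.

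Large subunit processing, the role with the most genes, had 3 of 8 called higher, where 27.9% of all genes were. Its median difference was 0.39. Rrp1b (chr17:32036100-32062865), a nucleolar factor of the large subunit, was at 11.1, 9.65, 11.0 and 9.18 FPKM in the wild-type, 11.7, 12.9, 10.8 and 12.8 in the heterozygous and 14.0, 18.0, 17.1 and 15.6 in the knockout libraries. Every knockout library was above all others and the rise was 0.61 ± 0.11 (SE, adjusted p = 0.000541). Rrs1 (chr1:9545408-9547455), which helps bring the 5S particle into the precursor, was at 29.8, 24.4, 31.0 and 23.4 FPKM in the wild-type, 31.8, 33.6, 30.8 and 27.9 in the heterozygous and 35.9, 47.7, 40.4 and 41.1 in the knockout libraries. The knockout libraries were again above the other 8, with a rise of 0.59 ± 0.12 (SE, adjusted p = 0.00151). Ddx18 (chr1:121553835-121567989), an RNA helicase, was at 17.4, 18.1, 19.4 and 16.4 FPKM in the wild-type, 18.8, 20.5, 18.4 and 19.3 in the heterozygous and 21.9, 29.3, 27.2 and 27.5 in the knockout libraries. Here too every knockout library was above the other 8, and the rise was 0.54 ± 0.10 (SE, adjusted p = 0.000856). The other 5 had differences from 0.06 (Wdr12) to 0.53 (Ppan) that were not called. Wdr12 and Pes1, partners in a complex that matures the large subunit RNA, had 0.06 and 0.23. Nop2, an rRNA methyltransferase, had 0.24, and Nle1, a factor that helps remodel the maturing large subunit, had 0.25 without overlap between wild-type and knockout libraries. Ppan, a nucleolar assembly factor, missed the threshold (adjusted p = 0.0516), with 60.5 to 70.0 FPKM in knockout replicates 1 to 3 and 129.5 FPKM in replicate 4.

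Of the synthesis enzymes, 1 of 4 rose, with a median difference of 0.49. Ppat (chr5:76913249-76951578), the committed enzyme of de novo purine synthesis, was at 12.9, 11.2, 13.4 and 10.9 FPKM in the wild-type, 14.9, 16.2, 14.0 and 15.4 in the heterozygous and 16.8, 27.5, 27.4 and 19.0 in the knockout libraries. In FPKM without size factors the genotypes did not overlap and stood in the order wild type, heterozygous, knockout. The heterozygous difference of 0.30 was not called. The rise in knockout cells, 0.83 ± 0.15 (SE, adjusted p = 0.000806), was the largest in the set. Ppat overlaps Paics, the enzyme of later purine steps, on the opposite strand, and Paics also rose, by 0.58 ± 0.13 (SE, adjusted p = 0.00393). Of the other called genes, Nop56, Gnl3, Tsr1, Wdr43, Rrp1b and Polr1a also overlap a gene on the opposite strand in GENCODE M21. No strand setting is given in the sources used here, so reads from such overlaps cannot be assigned. The polyamine enzymes act in sequence, and none of the 3 was called. Odc1 (chr12:17544794-17551505), which makes putrescine from ornithine, was at 66.0, 64.4, 77.2 and 57.9 FPKM in the wild-type, 71.0, 67.9, 64.5 and 59.9 in the heterozygous and 52.9, 110.2, 106 and 65.1 in the knockout libraries. Knockout replicates 2 and 3 stood above every other library and replicates 1 and 4 did not, with a difference of 0.27 ± 0.21 (SE, adjusted p = 0.324). Srm (chr4:148591503-148594993), the spermidine synthase, was at 18.1, 19.7, 24.2 and 18.6 FPKM in the wild-type, 22.3, 22.8, 14.8 and 16.7 in the heterozygous and 17.1, 49.3, 40.3 and 33.7 in the knockout libraries. In knockout replicates 2, 3 and 4 it was above all other libraries and in replicate 1 it was below all wild-type libraries, and the difference of 0.68 ± 0.27 (SE, adjusted p = 0.0534) missed the threshold. Sms (chrX:157443855-157492287), the spermine synthase, was at 6.07, 6.86, 6.37 and 5.39 FPKM in the wild-type, 6.39, 7.14, 6.23 and 6.59 in the heterozygous and 6.26, 8.90, 8.32 and 7.94 in the knockout libraries. Knockout replicate 1 lay within the wild-type range and the others above it, with a difference of 0.30 ± 0.12 (SE, adjusted p = 0.0548).

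**Figure D3:**
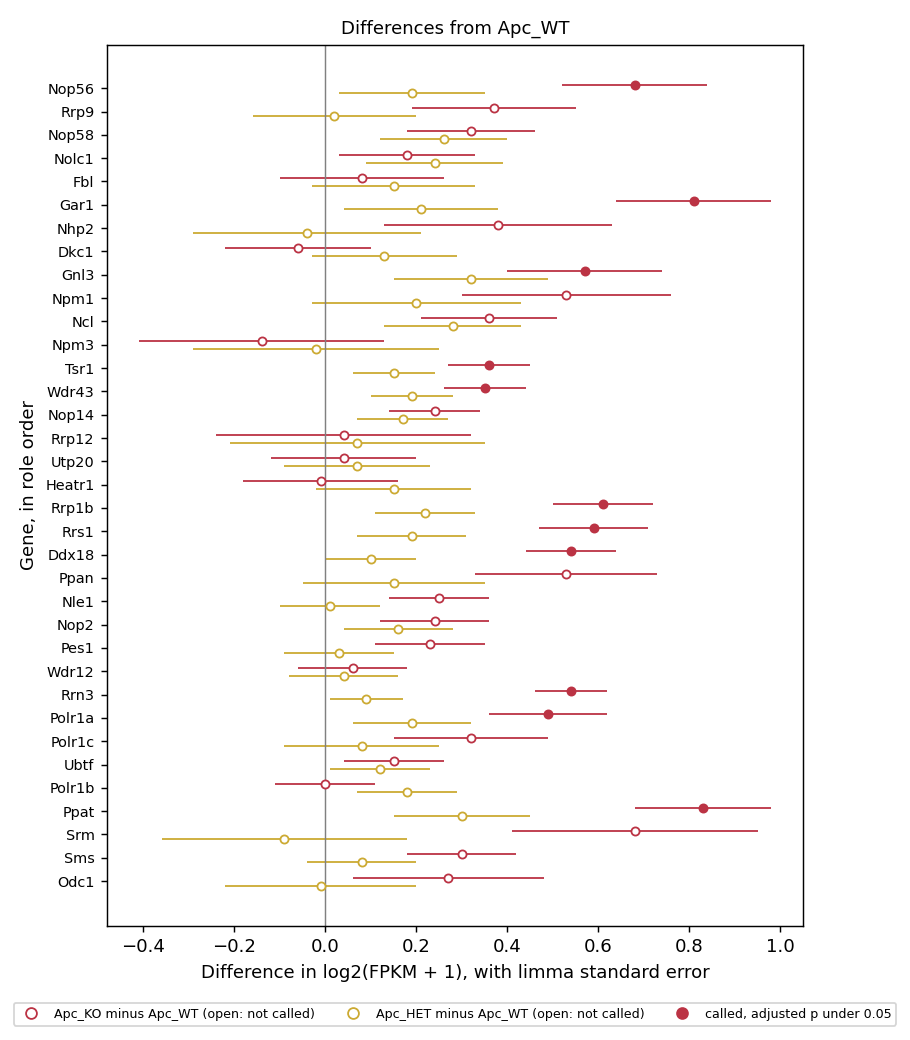
Differences from wild type in log2(FPKM + 1) for 35 growth genes (vertical axis, grouped by role), in knockout (red) and heterozygous cells (yellow), with limma standard errors as bars; filled points were called. The 11 filled points are all knockout differences above 0, and no heterozygous point is filled.

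Knockout replicate 1 differed from its group across the set. It was the lowest of the knockout libraries in 30 of 35 growth genes, against 32.0% of all genes. It was above the wild-type mean in 17 of the 35, while replicates 2, 3 and 4 were above it in 35, 34 and 29. The library median of the set was 4.94 to 5.00 on the log2(FPKM + 1) scale in wild type and 5.07 to 5.17 in heterozygous cells, and 4.77, 5.61, 5.37 and 5.41 in the knockout libraries. S phase and mitosis genes (42 tested) had medians of 4.66 to 4.96 in wild type and 3.88, 4.97, 5.01 and 4.49 in knockout libraries, also lowest in replicate 1. Wnt targets (14 tested) had 4.18 to 4.53 in wild type and 5.96, 5.65, 5.96 and 5.51 in knockout libraries, so replicate 1 was among the highest there. Lgr5, the stem cell receptor gene that drives the sort, was at 65.4, 35.4, 36.3 and 27.0 FPKM in the knockout and 30.0, 23.7, 20.2 and 21.6 in the wild-type libraries. Mki67, a proliferation marker, was at 19.4, 41.9, 47.5 and 27.7 FPKM in the knockout and 63.5, 46.9, 60.1 and 44.4 in the wild-type libraries.

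**Figure D4:**
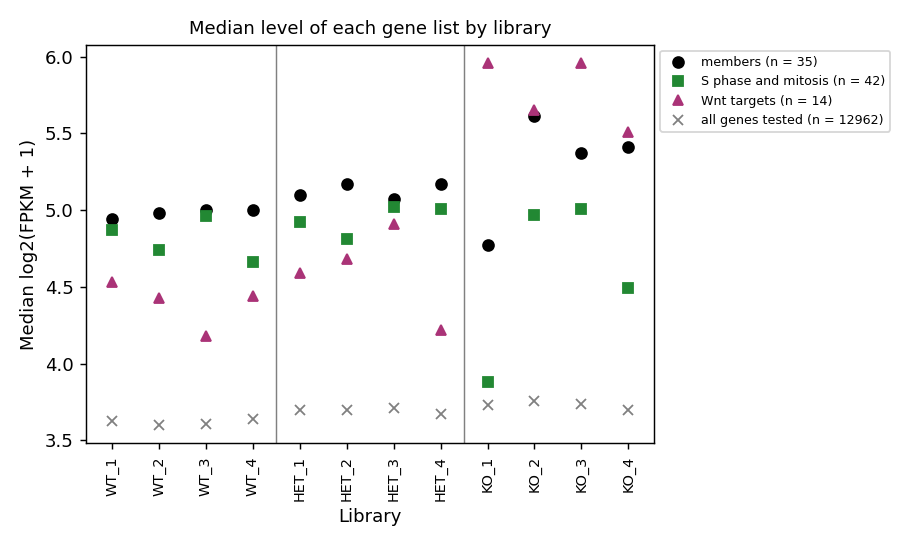
Median log2(FPKM + 1) of 4 gene lists (vertical axis) in each of 12 libraries (horizontal axis): the 35 growth genes (circles), S phase and mitosis genes (squares), Wnt targets (triangles) and all genes tested (crosses). Growth genes and S phase genes are lowest in knockout replicate 1 and Wnt targets are not.

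Without knockout replicate 1, 27 of the 35 growth genes were called higher than in wild type and none lower (77.1%), against a background of 29.3% called higher. The library was singled out because of its values in these genes, so this count is a description beside the main one. The 11 calls named above all remained. The 16 added were Srm (0.98), Npm1 (0.76), Nhp2 (0.65), Ppan (0.60), Rrp9 (0.58), Polr1c (0.49), Nop58 (0.47), Odc1 (0.46), Ncl (0.44), Sms (0.39), Nop2 (0.35), Pes1 (0.33), Nolc1 (0.32), Nle1 (0.30), Nop14 (0.29) and Fbl (0.28), each with its difference in parentheses. All 4 synthesis enzymes were then called, Odc1 with the largest limma adjusted p (0.0475). The 8 that were not called were Dkc1, Heatr1, Npm3, Polr1b, Rrp12, Ubtf, Utp20 and Wdr12. Without replicates 1 and 4 together, an alternative added after the data were seen, 23 were called against 31.1% of all genes, and with limma's array weights 22 against 30.8%.

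Knockout replicates 1 and 4 also departed from their group by transcript length. Each library was set against the mean of the other knockout libraries, and all genes were split into 4 classes of equal size by length. Among the shortest, replicate 4 deviated by a median of 0.51 and replicate 1 by -0.39, and among the longest by -0.38 and 0.20. The growth genes shorter than their middle length of 2804 bases deviated by 0.36 in replicate 4 and -0.49 in replicate 1, and the longer ones by -0.06 and -0.25. Calls in knockout against wild-type cells fell on 5 of 17 shorter and 6 of 17 longer genes, with medians of 0.38 and 0.30. Among all genes, 680 of 2777 in the shortest class were called higher, with a median of 0.14, and 818 of 2775 in the longest, with a median of 0.11. The part of length in the differences was not tested.

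**Figure D5:**
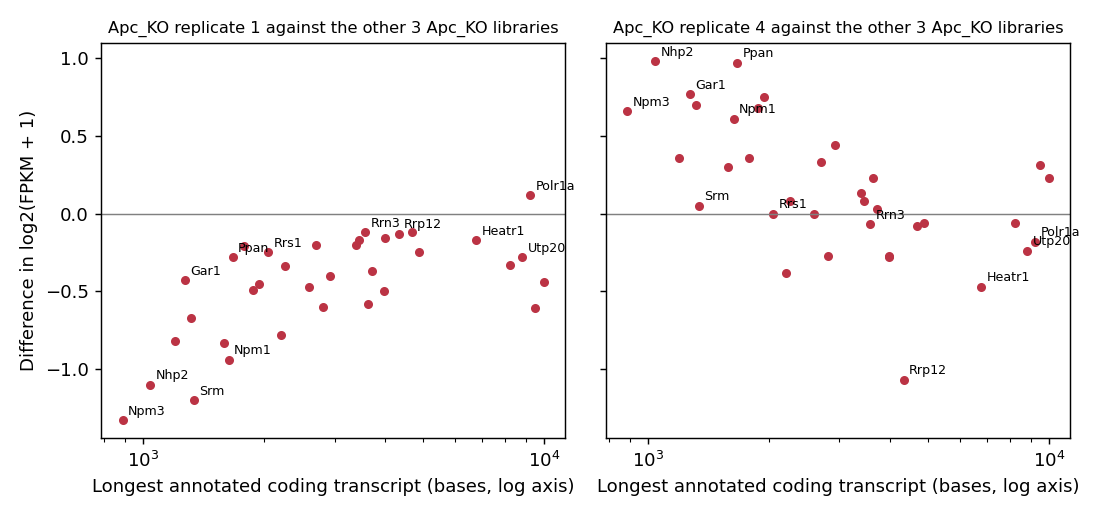
Each point is a growth gene, by the length of its longest coding transcript (horizontal axis, log scale) and by its log2(FPKM + 1) in knockout replicate 1 (left) or 4 (right) minus the mean of the other 3 knockout libraries (vertical axis). In replicate 1 the points lie below 0 at nearly every length, and in replicate 4 the shortest genes lie above 0 and most long genes near or below it.

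The growth genes include many hosts of small nucleolar RNAs, the guides of the particles described above. In GENCODE M21, 9 of the 35 (25.7%) hold at least 1 such gene within their bounds, against 186 of 11089 protein-coding genes tested (1.68%). They were Nop56, Nop58, Ncl, Dkc1, Wdr43, Gnl3, Odc1, Ppan and Tsr1. In knockout against wild-type cells 4 of the 9 and 62 of the 186 were called in either direction, against 45.5% of all genes tested. Nop56 holds 5 small nucleolar RNA genes, Snord57 and Snord110 included. The libraries were random-primed, and how reads from these introns entered a host's FPKM was not tested.

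The heterozygous genotype gave no call among the growth genes. In heterozygous against wild-type cells, limma called 0 of 35 and 0 of 12962 genes (0% of all genes). An unadjusted p under 0.05 was reached by 0 of 35 growth genes and by 4.33% of all genes. The test used a shared spread per gene, estimated over the libraries of all genotypes. The median SD of the growth genes was 0.29 in knockout, 0.13 in wild-type and 0.08 in heterozygous libraries. The unadjusted count therefore also depends on the knockout libraries. In a fit of only these 2 genotypes, 0 of 35 growth genes and 1 of 12962 genes were called. The median difference of the 35 was 0.15, against 0.07 for all genes, and 31 were above 0, a count not made for all genes. With size factors the median of the 35 was 0.07, and without wild-type replicate 4 it was 0.10. In 8 genes, Nop56, Nop58, Nop14, Npm1, Polr1b, Gnl3, Ppat and Tsr1, all heterozygous libraries were above all wild-type libraries, and in 0 all were below, against 5.46% and 0.617% of all genes. Their differences ran from 0.15 in Tsr1 to 0.32 in Gnl3. Overlap was judged on FPKM without size factors, which were 0.952 to 0.963 in wild-type and 1.01 to 1.02 in heterozygous libraries. The overlap was not recounted after scaling. Gnl3 had the largest difference of the 35, 0.32 ± 0.17 (SE, adjusted p = 0.987), then Ppat with 0.30 and Ncl with 0.28. Srm, Odc1, Npm3 and Nhp2 had differences at or below 0. These are values that did not pass the test, and the test does not show that the genotypes are alike.

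In knockout against heterozygous cells, 8 of 35 growth genes were called higher (22.9%) and none lower, against 22.8% of all genes called higher, 18.9% lower and 41.8% in either direction. They were Srm, Gar1, Ppat, Nop56, Rrn3, Ddx18, Rrs1 and Rrp1b, and the median difference was 0.22 against 0.04 for all genes. Without knockout replicate 4 the median was 0.14, against 0.02 for all genes. In 9 genes the libraries did not overlap in the higher direction, against 21.4% of all genes. Rrn3 rose by 0.46 ± 0.08 (SE, adjusted p = 0.000747) and Ddx18 by 0.44 ± 0.10 (SE, adjusted p = 0.00411). Gar1 rose by 0.59 ± 0.17 (SE, adjusted p = 0.0137), Ppat by 0.53 ± 0.15 (SE, adjusted p = 0.015) and Rrp1b by 0.39 ± 0.11 (SE, adjusted p = 0.0106). Srm rose by 0.77 ± 0.27 (SE, adjusted p = 0.0357) although knockout replicate 1, at 17.1 FPKM, lay within the heterozygous range. Nop56 and Rrs1 rose by 0.49 ± 0.16 (SE, adjusted p = 0.0245) and 0.40 ± 0.12 (SE, adjusted p = 0.0183). The calls of Srm, Nop56 and Rrs1 were lost without single libraries: Srm without heterozygous replicate 3 or 4 or knockout replicate 2, 3 or 4, Nop56 without heterozygous replicate 1 or 3 or knockout replicate 2, and Rrs1 without heterozygous replicate 4 or knockout replicate 2. In a fit of only these 2 genotypes the calls of Srm and Nop56 were lost and 6 remained (17.1%), where 2511 of 12962 genes were called higher. Without knockout replicate 2 the count fell to 5 (14.3%), where 2814 of 12962 genes were called higher. Without knockout replicate 1 the count was 17 (48.6%), against 24.3% of all genes called higher. This comparison shares the knockout libraries with the comparison against wild type, so the 2 counts are not independent.

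Myc and its relatives were measured beside their known targets. Myc was at 119.6, 106, 78.8 and 92.5 FPKM in the wild-type, 116, 98.3, 116 and 94.3 in the heterozygous and 123, 111, 107 and 105 in the knockout libraries. The 3 genotypes overlapped, and the differences were 0.18 ± 0.14 (SE, adjusted p = 0.306) in knockout and 0.10 in heterozygous cells against wild type. Mycn, at 7.30, 4.08, 2.51 and 6.83 FPKM in wild-type and 1.99, 1.84, 1.59 and 0.585 in knockout libraries, fell, with a difference of -1.26 ± 0.29 (SE, adjusted p = 0.0033), and Mycl rose by 0.51 ± 0.15 (SE, adjusted p = 0.0153). Pvt1, the noncoding neighbour of Myc, was at 1.04, 0.864, 1.34 and 0.324 FPKM in wild-type and 7.24, 9.36, 5.71 and 7.48 in knockout libraries and rose by 2.17 ± 0.20 (SE, adjusted p = 3.89e-06). Of 15 genes of the network, 5 were called higher (Pvt1, Mnt, Fbxw7, Mycl and Mxi1) and 3 lower (Mycn, Mlx and Mlxip), with a median of 0.25. Over all genes, 27.9% were called higher and 17.7% lower. With size factors 2 were called higher, and the median was 0.13. Mnt and Mxi1, which compete with Myc for Max, rose by 0.58 and 0.45, and Fbxw7, the ubiquitin ligase receptor that marks Myc for degradation, by 0.52. Mlx and Mlxip, a glucose-sensing pair, differed by -1.12 and -1.15. Max, the obligate partner of Myc, had 0.01, with signs that turned under size factors (-0.11) and quantile normalization (-0.05). The others were not called: Mxd1 (0.17), Mxd3 (0.33), Mxd4 (0.45), Mga (0.19) and Zbtb17 (0.25). RNA level does not measure Myc protein.

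Other genes of the same processes were counted in lists taken from the pathways. Over all genes, 27.9% were called higher and 17.7% lower in knockout than in wild-type cells, and 22.1% were called higher with size factors. The counts of these lists are to be read beside those shares. Of 45 other large subunit factors, 23 were called higher in knockout than in wild-type cells and 0 lower, with a median of 0.33; with size factors 7 were called higher and 1 lower, with a median of 0.21. The GTPase Lsg1, which acts late on the cytoplasmic large subunit, rose by 0.83 ± 0.13 (SE, adjusted p = 0.000186), Gnl2 by 0.79 and the helicase Ddx31 by 0.65. Of 41 other small subunit factors, 14 were called higher and 1 lower, with a median of 0.25; with size factors 12 were called higher and 3 lower, with a median of 0.13, and the median was 0.11 with quantile normalization. Nol10, Ltv1 and Tsr3 rose by 0.73, 0.71 and 0.70, and Tbl3, of the processome, had a difference of -0.48. Of 9 other RNA polymerase I genes 3 rose, Taf1b (0.88), Polr1e (0.58) and Taf1c (0.46), and the list's median was 0.10, or -0.02 with size factors, 0.02 with quantile normalization, 0.26 without knockout replicate 1 and 0.17 without replicate 4. Of 3 other H/ACA genes 1 rose, the assembly factor Naf1, with 0.54, a call lost with size factors.

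Among 16 other polyamine genes, 7 were called higher and 1 lower, with a median of 0.30, or 0.16 without knockout replicate 4 and 0.20 with size factors. The shares over all genes were 27.9% called higher and 17.7% lower. Smox, the spermine oxidase that turns spermine back to spermidine, was at 6.72, 8.53, 9.93 and 7.60 FPKM in the wild-type, 9.88, 9.65, 8.95 and 6.50 in the heterozygous and 74.8, 65.5, 76.6 and 80.8 in the knockout libraries. Every knockout library was far above all others, knockout replicate 1 included, and the rise was 3.04 ± 0.14 (SE, adjusted p = 1.86e-08), larger than that of any of the 35 growth genes. Oaz2, an antizyme that inhibits ornithine decarboxylase, rose by 1.06 ± 0.17 (SE, adjusted p = 0.000303), and Mtap, which salvages the by-product of polyamine synthesis, by 0.87. Dhps, which uses spermidine to modify the translation factor Eif5a, rose by 0.84 against heterozygous cells. Agmat, which makes putrescine from agmatine, fell, with a difference of -1.31 ± 0.17 (SE, adjusted p = 5.07e-05). Of 10 other purine genes 5 rose and 1 fell. Impdh1 and Gmps, of GMP synthesis, rose by 0.92 and 0.48, and Prps1, which makes the substrate of Ppat, fell, with -0.79. That list's median was 0.08, or -0.04 with size factors, 0.01 with quantile normalization, 0.14 without knockout replicate 1 and 0.13 without replicate 4.

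Proliferation genes were counted beside the growth genes. Of 42 S phase and mitosis genes, 0 were called higher and 5 lower in knockout than in wild-type cells by limma. Over all genes, 27.9% were called higher and 17.7% lower. The median was -0.22, where the growth genes had 0.32 and all genes 0.12. E2f2, E2f8 and Kif23 fell, with differences of -1.66 and -1.40 in the E2f pair. The median was -0.34 with size factors and -0.12 without knockout replicate 4. Without knockout replicate 1 the list had 5 calls higher and 4 lower and a median of 0.04, against 29.3% of all genes called higher. Without replicates 1 and 4 it had 15 higher and 4 lower and a median of 0.29, against 31.1% of all genes called higher. Mki67 fell, with a difference of -0.70 ± 0.24 (SE, adjusted p = 0.0281), while Top2a, the replication-linked topoisomerase, was at 49.8, 141, 147 and 53.8 FPKM in the knockout libraries, high in replicates 2 and 3 and low in replicates 1 and 4, against 108, 83.9, 114 and 79.9 FPKM in wild type.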

How the data were processed

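RNA of sorted Lgr5-GFP+ cells from 12 mice was sequenced from random-primed cDNA, per the labels' protocols. The authors deposited FPKM per assembled locus, per the file headers. Reads were handled with the tools Bowtie and TopHat, then Cufflinks with Cuffdiff, against build mm10 (GRCm38), per the submitters' processing notes; versions, annotation and strand setting are not given in the sources used here. FPKM of the loci of a symbol was summed, after 295 symbols with differing loci and 122 with failed estimates were left out of 14499. Of the 35 genes, 7 had several loci.

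Genes with at least 1 FPKM in at least 4 libraries (12962) entered 1 model of all 12 libraries in limma (3.58.1; R 4.3.3), fitted with a mean-variance trend to log2 FPKM after a pseudocount of 1. Tests were two-sided, with Benjamini-Hochberg adjustment per comparison and a threshold of 0.05. On simulated data for knockout against wild type (12962 genes), the fit recovered 29 of 100 genes changed by 0.5 on the log2 scale and 77 of 100 changed by 1.0. Only these genes were changed there, whereas 45.5% of all genes were called in the data, and the adjusted p depends on that share. The simulation also gave all genotypes the same spread per gene. In the data the median SD over all genes was 0.32 in knockout and 0.16 in wild-type libraries. The recovery therefore does not describe the comparison in the data. A fold on the log2(FPKM + 1) scale understates the change of low genes. The replicates are separate mice; absolute depth is unknown, which limits the precision of low values.

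The growth genes and all lists were chosen with earlier results of these data known. Values in every library are given for called growth genes and for the growth genes that carry each role. In other lists, up to 3 called genes in each direction with a higher mean of at least 5 FPKM could be named. The whole Myc network could also be named. Most of these list genes are given by their difference only. Alternatives were pseudocounts of 0.1 and 5, no filter and a 5 FPKM filter, size factors, quantile normalization, array weights, only the genotypes compared, a replicate block, the highest locus only, and each library left out.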

Additional observations from a re-analysis of the deposited data

Results flagged for a closer look

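In 105 sets of 4 libraries (35 genes in 3 genotypes), 2 held a library whose gap to its nearest neighbour, divided by the range of the 4, was above Dixon's critical value. About 1 in 20 such sets is marked by chance. Ppan was at 129.5 FPKM in knockout replicate 4 and at 67.2, 70.0, 60.5 and 129.5 FPKM in knockout replicates 1 to 4 in order. Tsr1 was at 50.3 FPKM in heterozygous replicate 1 and at 50.3, 48.8, 48.8 and 48.9 FPKM in heterozygous replicates 1 to 4, a group whose whole spread was small.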

How the results depend on the processing

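All 11 calls in knockout against wild-type cells were kept under each of the 19 alternatives. In a fit of only these 2 genotypes, 3030 of 12962 genes were called higher, against 3613 in the main fit. The number of growth genes called rose from 11 to 22 (knockout against wild type) and from 8 to 14 (knockout against heterozygous) with array weights, and to 23 and 15 without knockout replicates 1 and 4; in knockout against heterozygous cells 26.6% and 25.2% of all genes were then called higher. With 1 library left out the numbers ran from 11 to 27 and from 5 to 17, highest without knockout replicate 1, lowest in the second comparison without knockout replicate 2. Heterozygous against wild-type cells gave 0 growth genes under all settings run. The replicate numbers share no stated source. Of 12 correlations between same-numbered libraries 3 were over 0.1, and 2 of 12 libraries correlated best with their own number. Such correlations do not show whether same-numbered mice were paired. With a replicate block the counts were 11, 0 and 8.

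Differences near 0 in knockout against wild type changed sign in genes that were not called in the reported comparison. With size factors Fbl was at -0.04, Wdr12 -0.05, Rrp12 -0.07, Utp20 -0.07, Polr1b -0.11 and Max -0.11. With quantile normalization Wdr12 was at -0.11, Rrp12 -0.10, Utp20 -0.07, Polr1b -0.09 and Max -0.05. With array weights Npm3 was at 0.06, Dkc1 0.18 and Heatr1 0.19, and without knockout replicates 1 and 4 at 0.12, 0.27 and 0.23, where Dkc1 was called higher (limma adjusted p = 0.042). With 1 library left out the ranges were Fbl -0.02 to 0.28, Npm3 -0.30 to 0.20, Dkc1 -0.17 to 0.09, Rrp12 -0.15 to 0.31, Utp20 -0.07 to 0.18, Heatr1 -0.10 to 0.11, Polr1b -0.05 to 0.07 and Max -0.02 to 0.05. The cause was not tested. Depth is unknown, so no limit can be set on low values.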
